A study of Mus musculus with 22 samples.

Results

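NIH3T3 cells carrying the second of 2 short hairpin RNAs (shRNAs) against Denr were compared with cells carrying a scramble shRNA that has no intended target. The comparison took every library of these groups, which gave 12 of the 22 samples: 3 lysates per shRNA, each measured by ribosome footprint sequencing (RPF-seq) and by RNA sequencing (RNA-seq). NIH3T3 is an immortalised mouse embryo fibroblast line. All cells, controls included, had been transduced with a lentiviral pLKO.1puro vector and selected with puromycin, with no step of picking clones described, and all were given cycloheximide before lysis to hold ribosomes on the mRNA. The remaining 10 samples came from Denr shRNA1 (3 lysates) and Gfp shRNA (2 lysates), and are used below only to see whether values seen with shRNA2 against scramble also held in cells with other hairpins.

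DENR forms a dimer with MCTS1 that acts on the small ribosomal subunit after a ribosome has terminated. On mRNAs with an upstream open reading frame (uORF) in the 5′ untranslated region (UTR), the dimer helps the subunit to let go of the last tRNA and to start again at the main coding sequence (CDS), a step called reinitiation. eIF2D, a single protein built from similar domains, has related activities in vitro.

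The hairpin is shown first, because the comparison rests on it. Its target in Denr lies at chr5:123908167-123908187 on the plus strand of GRCm38, in exon 2 and within the CDS, and the capitals mark the bases that pair with the seed of the guide strand (its bases 2 to 8).
Denr shRNA2 target: gtgccaagttagaTGCGGATt

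The next sequences are the starts of the first AUG uORF of 7 genes whose CDS footprints were lower relative to their RNA with shRNA2. They are shown because uORFs are the feature through which DENR is known to act. The 7 are examples from 12 such genes. In the others, Slc41a1, Pcgf3, Nadk, Armcx5 and Atf1, the first AUG uORF spans 435, 69, 159, 48 and 39 nt. Capitals mark the upstream AUG and, where the uORF ends within the printed stretch, its stop codon.
Klhdc8a: cgcgagATGgagg
Anapc5: gcagccATGgcgTAA
Map2k6: acttgcATGaaga
Fam43a: ggcaATGatgTGA
Rmnd1: cctaagATGcgac
Drosha: gctttgATGgcgg
Fcgrt: gatcaaATGagaaggTGA
All were read from GENCODE vM21 transcripts on GRCm38, taking per gene the transcript with the longest CDS and, among those, the longest 5′ UTR. The AUG of Klhdc8a lies at chr1:132299162-132299164 (plus strand) and opens a uORF of 42 nt, stop codon included. That of Anapc5 lies at chr5:122821241-122821243 (minus strand), with a uORF of 9 nt, which is an AUG, 1 further codon and a stop. That of Map2k6 lies at chr11:110399302-110399304 (plus strand), with a uORF of 45 nt. Fam43a has 4 AUG uORFs, of which the first starts at chr16:30599727-30599729 (plus strand) and spans 9 nt. Drosha has 5, the first at chr15:12824915-12824917 (plus strand) with 60 nt. The uORF of Fcgrt starts at chr7:45103241-45103243 (minus strand) and spans 12 nt. In Rmnd1 the uORF starts at chr10:4427683-4427685 (minus strand), spans 99 nt and runs into the CDS, unlike the other 6. The 5′ UTR length of the chosen transcript equalled the one behind the deposited values in 10 of the 16 lower-TE genes, and not in Samd4b, Rmnd1, Nadk, Etl4, Atf1 and Fcgrt, so the uORFs given for these 6 may not be those of the measured transcript.

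Values are RPKM (reads per kilobase of feature, scaled to library size by the authors) in the 5′ UTR or the CDS of 10516 genes. Translation efficiency (TE) is the CDS footprint level divided by the CDS RNA level. Relative 5′ UTR translation is the 5′ UTR footprint level divided by the CDS footprint level. Differences are shRNA2 minus scramble on the log2(RPKM + 0.1) scale with the SE from limma, and a gene was called at a Benjamini-Hochberg adjusted p of 0.1. The exact permutation p for 3 against 3 lysates cannot go below 0.1. Each lysate came from a dish of its own, and the p-values measure the spread between these lysates.

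Reads on the CDS and 5′ UTR numbered 10927303 to 15090773 per library for shRNA2 footprints and 12211415 to 21649878 for scramble footprints. The RNA libraries held 18660811 to 20109700 reads for shRNA2 and 8514080 to 18678073 for scramble. Scramble replicate 3 stood apart: it had the shallowest RNA library, the deepest RPF library and the lowest squared correlations with its own group (0.976 to 0.982 for RNA), against 0.989 to 0.994 for the other pairs. All but 1 of the fibroblast markers looked up were measured. Of these 13, 5 were called higher in RNA with shRNA2 and 0 lower, against 10.4% and 6.16% of all genes. In value 9 were higher and 4 lower, and with the Gfp lysates added to the control 0 were called. The summed RNA of the 13 was 8756 to 9033 RPKM with shRNA2 and 7634 to 9168 RPKM with scramble. Of 13 markers of epithelial, endothelial, leukocyte and muscle cells, 9 had no row in the table. The other 4 summed to 43.6 to 45.9 RPKM with shRNA2 and 31.7 to 37.8 RPKM with scramble, nearly all of it Lyz2, a lysozyme gene (38.5 to 40.2 against 26.5 to 32.0 RPKM). Cdh1, Cdh5 and Des were each at or below 4.05 RPKM in all 6 lysates. The part of these markers in the results was not tested, and in such bulk samples fewer cells of a type and less RNA per cell cannot be told apart.

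Denr itself was strongly depleted. Its RNA measured 15.5, 20.8 and 17.4 RPKM in the shRNA2 lysates and 190, 185 and 189 RPKM in the scramble lysates, and the Gfp lysates held 165 and 174 RPKM. No shRNA2 lysate came near a control. The fall of 3.40 ± 0.10 (log2, SE, limma) was a loss of 90.5% ± 1.44 (SD, n = 3) of the message. Denr footprints fell with it, from 173, 179 and 152 to 9.25, 13.2 and 12.8 RPKM, a loss of 93.0% ± 1.30 (SD, n = 3).

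Neither the partner Mcts1 nor Eif2d was called in RNA or footprints. Mcts1 RNA was 7.56, 6.90 and 8.86 RPKM with shRNA2 and 8.16, 8.51 and 16.4 RPKM with scramble, so the groups overlapped. The highest value belonged to scramble replicate 3. Mcts1 TE was higher by 0.68 ± 0.10 (log2, SE; limma adjusted p = 0.098), a call just inside the threshold that was lost in 13 of 16 other settings. Mcts1 has a near copy, Mcts2, with which reads could be shared. Eif2d differed by 0.07 in RNA and -0.24 in TE (log2; limma adjusted p = 0.586 and 0.502).

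The first question was which mRNAs had fewer CDS footprints relative to their message. With shRNA2 a small set of genes had a lower TE. TE was called lower in 16 genes (0.152% of 10516) and higher in 3 (0.0285%). At an unadjusted p under 0.05 there were 679 lower (6.46%) and 322 higher (3.06%). The lower genes included Klhdc8a, which encodes a kelch-domain protein, Anapc5, a subunit of the ubiquitin ligase that drives mitotic exit, Map2k6, the kinase that activates p38, and Drosha, the nuclease that begins microRNA maturation.

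**Figure D1:**
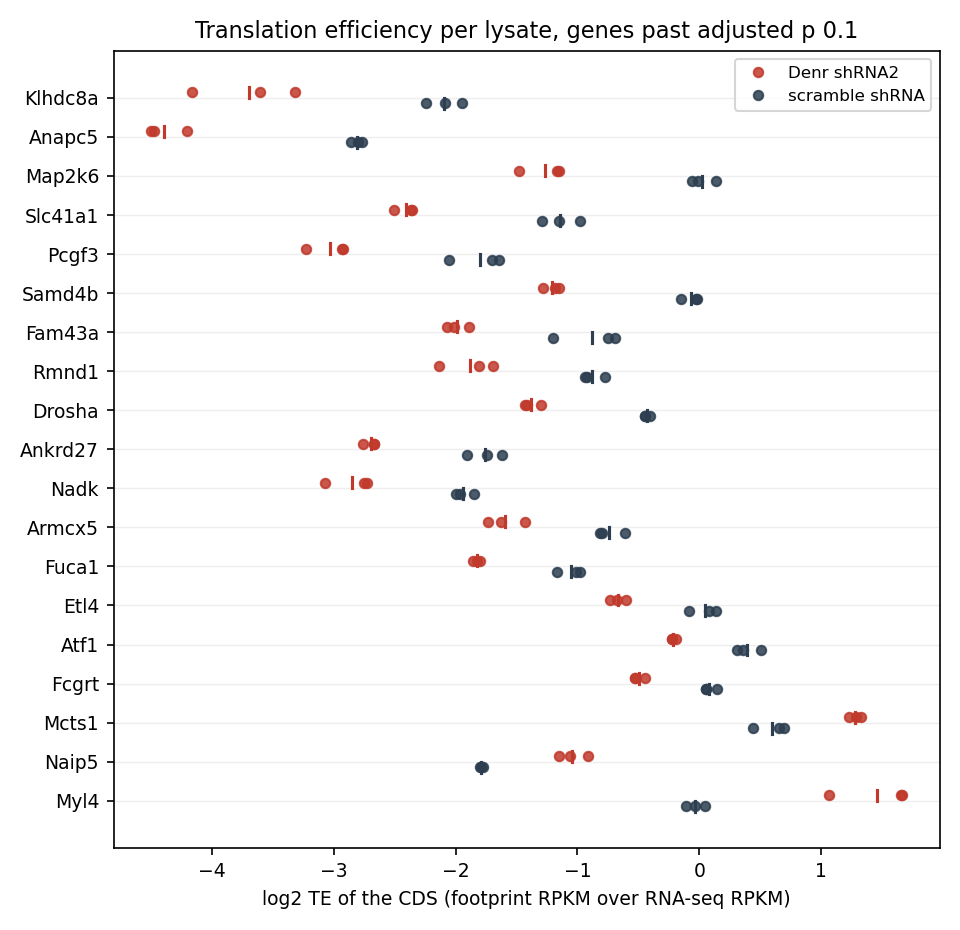
Log2 translation efficiency (CDS footprint RPKM over CDS RNA RPKM, x axis) of the 19 called genes (rows), with 1 point per lysate and a bar at each group mean. In the 16 lower genes every shRNA2 point lies left of every scramble point, as held for 9.06% of all genes. In Myl4, Naip5 and Mcts1 every shRNA2 point lies right of every scramble point, for which the share of all genes is not given. The 19 genes were called on these same values.

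Among the called genes the largest change was that of Klhdc8a. Its log2 TE was -3.61, -3.31 and -4.16 with shRNA2 and -2.24, -1.94 and -2.09 with scramble, a fall of 1.6 ± 0.22 (SE; limma adjusted p = 0.0962). CDS footprints measured 2.75, 2.99 and 1.75 RPKM against 10.7, 10.8 and 10.0 RPKM. Its 5′ UTR, by contrast, kept 31, 31.4 and 21.7 RPKM of footprints against 34.3, 38.4 and 26.4 RPKM, values that overlapped between the groups. Klhdc8a was the 1 gene called for relative 5′ UTR translation, which was higher by 1.83 (log2; limma adjusted p = 0.041).

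Anapc5 carries the shortest of these uORFs together with Fam43a, and its log2 TE was -4.47, -4.2 and -4.50 against -2.86, -2.80 and -2.76. The fall of 1.58 ± 0.13 (log2, SE; limma adjusted p = 0.0176) came from footprints, 25, 27.7 and 23.5 RPKM with shRNA2 and 63.5, 64.1 and 67.2 RPKM with scramble. Anapc5 RNA was higher, not lower, with 555, 510 and 531 RPKM against 460, 446 and 457 RPKM. Footprints on its 5′ UTR ran from 121 to 241 RPKM with shRNA2 and from 80.1 to 154 RPKM with scramble, and these ranges overlapped. Among 16 measured genes of the anaphase-promoting complex and its activators, it alone had a called TE.

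Map2k6 reached its lower TE by another route. Its RNA measured 34.3, 30.5 and 33.6 RPKM with shRNA2 and 14.8, 14.3 and 10.6 RPKM with scramble, a rise of 1.32 (log2; limma adjusted p = 0.00139). Its footprints, 12.3, 13.7 and 14.9 RPKM against 14.7, 13.7 and 11.7 RPKM, differed by 0.03 (limma adjusted p = 0.898). TE was therefore lower by 1.29 ± 0.12 (log2, SE; limma adjusted p = 0.0223). Drosha had the same arrangement, with RNA of 59.6, 60.4 and 61.7 RPKM against 35.2, 34.7 and 35.9 RPKM. Drosha footprints were 22, 22.5 and 25.1 RPKM against 26.5, 25.5 and 26.4 RPKM, and its TE fell by 0.95 (log2; limma adjusted p = 0.0223).

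Across the 16 lower genes, RNA was called higher in 12 and CDS footprints were called lower in 10, with 6 genes in both counts. Over all genes 10.4% were called higher in RNA and 11.7% lower in footprints, and the choice by a low TE already favours both. Klhdc8a was the exception in direction, with RNA called lower by 0.46 (log2). Its RNA call was lost when the Gfp lysates joined the control (limma adjusted p = 0.365). Genes in which footprints were called lower included Slc41a1, a magnesium transporter (TE -1.27), Pcgf3, a Polycomb RING finger protein (TE -1.22), Samd4b, an RNA-binding repressor of translation (TE -1.14), and Nadk, the kinase that makes NADP (TE -0.91). The CDS footprints of Slc41a1 were 14.3, 15.4 and 17.4 RPKM against 28.8, 27.9 and 23.1 RPKM. Those of Samd4b were 12.8, 14.7 and 16.2 RPKM against 27.6, 26.4 and 21.8 RPKM. In both genes the groups did not overlap, but the choice by a footprint call already favours this. The share of all genes with such separation was not counted.

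Fam43a (TE -1.11), Drosha, Atf1, a CREB-family transcription factor (TE -0.61), and Fcgrt, the neonatal Fc receptor (TE -0.58), were genes whose RNA was called higher while footprints were not called. Fcgrt footprints were 31.1, 31.2 and 31.5 RPKM against 30.6, 27.7 and 32.9 RPKM. The remaining lower genes were Rmnd1, needed for translation in mitochondria (TE -1), Ankrd27, a regulator of endosomal traffic (TE -0.94), Armcx5 (TE -0.86), Fuca1, a lysosomal fucosidase (TE -0.77), and Etl4 (TE -0.72).

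The 3 genes with higher TE shared no such pattern. Myl4, a myosin light chain, had a log2 TE of 1.66, 1.06 and 1.65 with shRNA2 and -0.03, 0.05 and -0.11 with scramble (difference 1.49; limma adjusted p = 0.0471), and the Gfp lysates lay between them at 0.91 and 0.78. Naip5, a sensor of bacterial flagellin, differed by 0.75 (log2) at footprint levels of only 0.207 to 0.503 RPKM. Mcts1 is described above.

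The TE calls rested on all 6 lysates. With 1 lysate left out the number of calls was 0 without shRNA2 replicate 1, 5 without replicate 2 and 0 without replicate 3, and it was 0, 0 and 11 without scramble replicate 1, 2 and 3. Each of the 19 genes kept its direction in all 16 other settings, and the fewest losses of a call were 5, for Anapc5, Map2k6 and Samd4b.

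The uORF annotation was not used to choose these genes. Of the 16 lower genes, 12 (75%) had at least 1 AUG uORF in the transcript used, against 49.8% of the 10205 genes with an annotated 5′ UTR. A uORF that ends before the CDS was found in 11, against 42.2% of all genes. Samd4b, Ankrd27, Fuca1 and Etl4 had none, but for Samd4b and Etl4 the transcript used differed in 5′ UTR length from the deposited one.

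The same genes were looked up in lysates that the comparison did not use. With shRNA1 against Gfp shRNA, TE was lower in 16 of the 16 genes, at a median of -0.61 (log2). Over all genes 58.2% were lower and the median was -0.02. Anapc5 differed there by -1.19, Samd4b by -0.94, Klhdc8a by -0.92, Slc41a1 by -0.83 and Map2k6 by -0.66. Of the 3 genes with higher TE, 1 was higher there, Mcts1 by 0.22.

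Further genes had been picked as examples by the study from these libraries, so their direction is not independent evidence. Of the 9 measured genes that it treats as DENR targets, all had a lower TE in value, at a median of -0.57 (log2, against -0.004 over all genes), and 2 were called, Klhdc8a and Map2k6. Vegfd, a lymphangiogenic growth factor, came next, with a TE of -0.66 (log2; limma adjusted p = 0.109) and a called fall of its footprints by 0.54, from 70.9, 68.1 and 73.7 to 43.8, 51.5 and 51.0 RPKM. For Etaa1, a DNA replication stress factor, Jak2, a cytokine receptor kinase, Atf5, a stress-induced transcription factor, and Rnaseh1, which degrades RNA in RNA-DNA hybrids, the TE values were -0.66, -0.57, -0.54 and -0.43. Their limma adjusted p-values ran from 0.256 to 0.305. Atf4, the main transcription factor of the integrated stress response, had a TE difference of -0.04 (log2), and that of the clock gene Clock was -0.19. Neither TE was called. CDS footprints of Clock were called lower, with values of -0.50 to -0.37 (log2) over the other settings. That call was lost in 1 of 15 of them.

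A second readout was how footprints were shared between the 5′ UTR and the CDS. Footprints lay further towards the 5′ UTR in the shRNA2 cells. The relative 5′ UTR translation, centred per gene, had lysate medians of 0.09, 0.27 and 0.06 (log2) with shRNA2 and -0.14, 0.03 and -0.27 with scramble. The shRNA2 lysates were all above the scramble lysates, by 0.27 on average (exact permutation p = 0.1, two-sided, the smallest 3 against 3 can give).

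**Figure D2:**
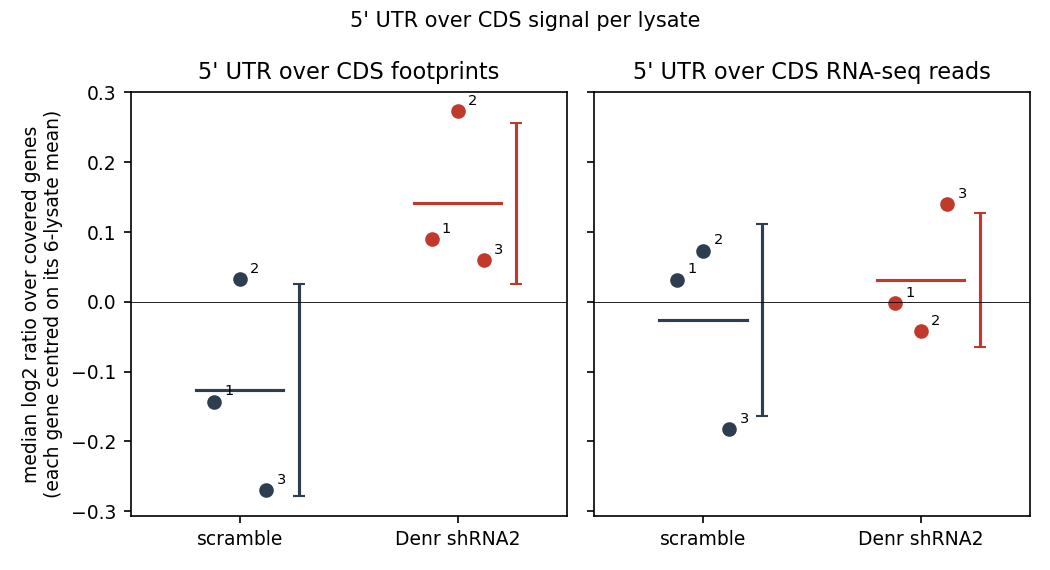
Median over the covered genes of the 5′ UTR to CDS ratio (log2, after subtracting the gene's own mean) in each lysate, for footprints (left panel) and RNA-seq reads (right panel), with replicate numbers, group means and SD bars. Footprint medians of the 3 shRNA2 lysates (0.06 to 0.27) lie above those of the 3 scramble lysates (-0.27 to 0.03), and the RNA-seq medians overlap.

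Of the 5175 genes with enough 5′ UTR footprints, 82.2% had a higher value with shRNA2, and in 20.7% all 3 shRNA2 lysates exceeded all 3 scramble lysates, against 0.966% in the other direction. Single genes were rarely callable, with 1 gene higher (0.0193%) and 0 lower by limma. This ratio comes from the footprint libraries alone. With the replicate number as a block, 221 genes were called higher and 3 lower. The labels do not say that equal numbers form pairs. Deviations of the ratio did not correlate in every number (r of 0.20, -0.0086 and 0.37), so the block counts are uncertain. At an unadjusted p under 0.05 there were 756 higher (14.6%) and 22 lower (0.425%). In RNA-seq the 5′ UTR to CDS ratio had lysate medians of -0.002, -0.042 and 0.140 with shRNA2 and 0.032, 0.073 and -0.183 with scramble, and these overlapped (difference 0.06, exact permutation p = 0.7). No gene was called for this RNA-seq ratio by limma, and 96 lower (1.86%) and 100 higher (1.93%) had an unadjusted p under 0.05. Split into its parts, the footprint level of the 5′ UTR differed by 0.25 (exact permutation p = 0.1) and that of the CDS by -0.02 (exact permutation p = 0.1). Footprints on the 5′ UTR relative to the RNA of the 5′ UTR differed by 0.17, and the lysates overlapped (exact permutation p = 0.2).

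All 15 of the lower-TE genes with enough 5′ UTR footprints had a higher relative 5′ UTR translation. The CDS footprint level enters both measures, so this count is no separate evidence. In Rmnd1 and Drosha the 5′ UTR footprints themselves were higher in each shRNA2 lysate than in each scramble lysate. For Rmnd1 they were 14.7, 18.8 and 14.4 RPKM against 7.18, 9.35 and 4.92 RPKM. For Drosha they were 104, 105 and 103 RPKM against 71.3, 62.2 and 37 RPKM. Drosha RNA was called higher as well, and whether its 5′ UTR footprints rose beyond its RNA was not tested. In Fam43a, in contrast, the 5′ UTR footprints were 4.37, 5.36 and 5.79 RPKM against 5.06, 5.26 and 5.51 RPKM, with no separation. The share of genes with such separation was not counted. The median 5′ UTR footprint level was itself higher by 0.25 (log2) with shRNA2.

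Genes were then grouped by the number of AUG uORFs in their annotated 5′ UTR. The median TE difference was 0.02 (log2) for the 5120 genes with none, -0.005 for 2244 genes with 1, -0.03 for 1062 genes with 2 and -0.05 for 1779 genes with 3 or more. The steps were small beside the changes of the called genes. In the group with 3 or more, the centred lysate medians were -0.037, -0.036 and -0.003 with shRNA2 and 0.047, 0.028 and 0.026 with scramble, which did not overlap. Taking all uORF genes against genes without, the difference was -0.04 (log2; exact permutation p = 0.1, two-sided), and the lysates again did not overlap. RNA had medians of 0.0055, 0.025, 0.064 and 0.061 (log2) in the classes with 0, 1, 2 and 3 or more uORFs, and CDS footprints had 0.017, 0.012, 0.011 and -0.0049. Of the 2 parts of TE, RNA thus spanned more between the classes than footprints did. Relative 5′ UTR translation was higher in every class, with medians of 0.31, 0.27, 0.24 and 0.21 (log2) in the same order. At an unadjusted p under 0.05 it was higher in 18.9% of genes without a uORF and in 12.3% of those with 3 or more.

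**Figure D3:**
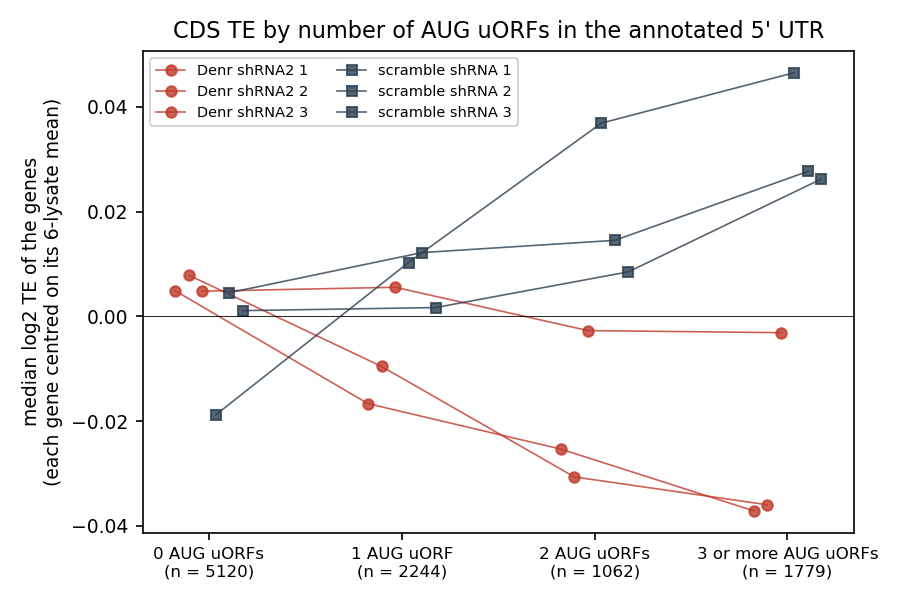
Median log2 TE in each lysate (y axis, after subtracting the gene's own 6-lysate mean) for genes grouped by the number of annotated AUG uORFs (x axis). The shRNA2 and scramble lines cross: with 3 or more uORFs the shRNA2 medians (-0.037 to -0.003) lie below the scramble medians (0.026 to 0.047).

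The kind of uORF also differed in its values. The 3434 genes whose uORFs all end before the CDS had a median of -0.04, and the 778 genes whose uORFs all run into the CDS had 0.02 (log2 TE). Rmnd1, with its overlapping uORF, was a lower-TE gene of the second kind in the transcript used. The 5′ UTR of that transcript differed in length from the deposited one (232 against 531 nt), so this class is uncertain for Rmnd1. Genes with a single uORF ending before the CDS had medians of -0.02 (9 to 15 nt, 298 genes), -0.03 (18 to 30 nt, 398), -0.04 (33 to 60 nt, 469), -0.02 (63 to 120 nt, 284) and 0.03 (above 120 nt, 104). The longest class was the only class above 0. The difference between these classes was not tested.

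The second question was what the message levels themselves did. RNA was called lower in 648 genes (6.16% of 10516) and higher in 1089 (10.4%). Most changes were small, since 57 of the called genes differed by 1 or more on the log2 scale. CDS footprints were called lower in 1226 genes (11.7%) and higher in 1361 (12.9%), of which 72 in all reached 1. The 447 genes lower in both were 69.0% of those lower in RNA and 36.5% of those lower in footprints. The 611 genes higher in both were 56.1% of those higher in RNA and 44.9% of those higher in footprints. No gene called lower in RNA was called higher in footprints, and 11 genes showed the opposite arrangement. Since 1 hairpin was compared with 1 control hairpin, a change due to DENR loss and any other difference between cells with these hairpins cannot be told apart here.

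**Figure D4:**
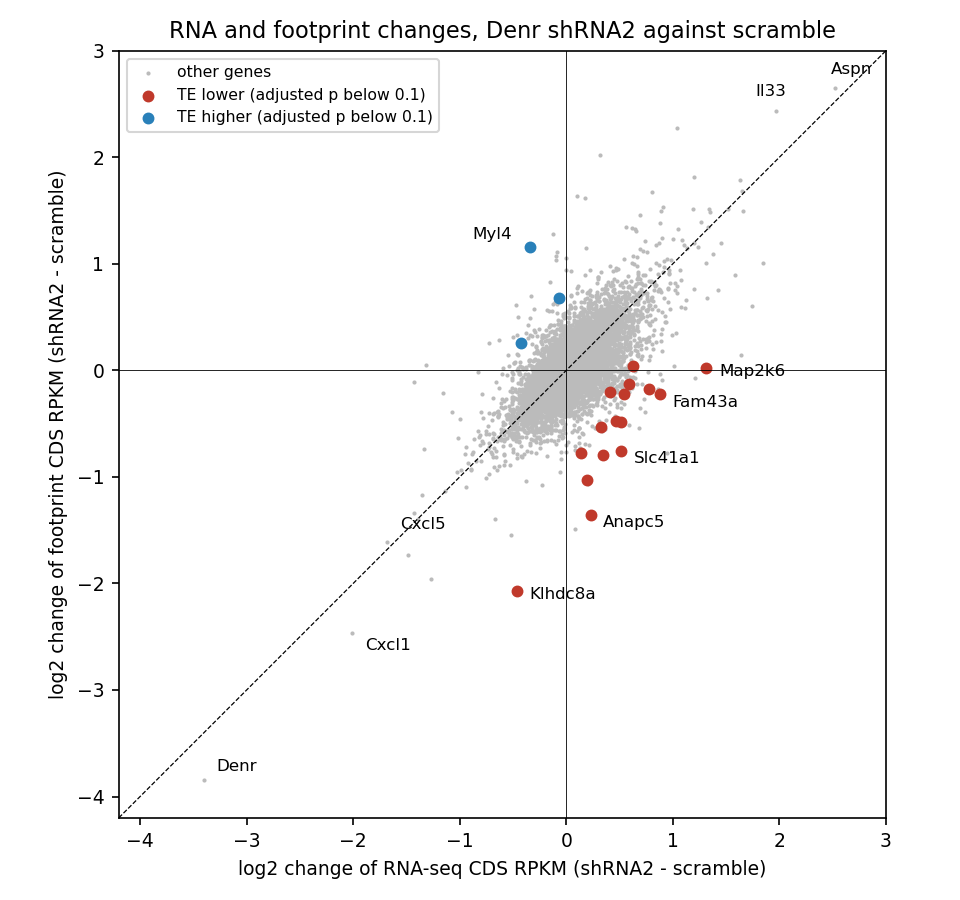
RNA difference (x axis) against CDS footprint difference (y axis) of each gene, shRNA2 minus scramble, both in log2, with the dashed line marking equal change. Denr lies lowest at -3.40 and -3.84, the 16 genes with lower TE (red) lie below the line and the 3 with higher TE (blue) above it.

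Among called genes whose groups did not overlap and whose mean RNA level reached 1 RPKM, the following fell most beside Denr. Cxcl1, a chemokine that attracts neutrophils, measured 2.97, 2.2 and 1.79 RPKM with shRNA2 and 12.2, 8.02 and 8.59 RPKM with scramble, a fall of 2.01 ± 0.21 (log2, SE). The related Cxcl5 measured 8.21, 8.66 and 9.12 RPKM against 23.8, 26.4 and 34.7 RPKM, a fall of 1.68 ± 0.13. Both kept the Gfp lysates above the shRNA2 lysates, Cxcl1 at 7.83 and 5.10 RPKM and Cxcl5 at 18.2 and 15.5 RPKM. The chemokine gene Ppbp fell by 1.43 (log2), and Glyat, a glycine acyltransferase, by 1.40.

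The proliferin Prl2c3, a placental-type prolactin relative made by growing fibroblasts, fell by 1.48 in RNA, with 7.98, 7.54 and 8.53 RPKM against 20.6, 22.9 and 24.3 RPKM. All 3 measured proliferins were called lower in RNA, against 6.16% of all genes. In footprints 2 were called lower, against 11.7% of all genes, and the other differed by 0.05 (log2). With the Gfp lysates added to the control, 3 were called lower in RNA and 0 in footprints. Proliferin sequences are nearly identical, so reads could have been divided among these genes. In footprints S100a7a, which encodes a small calcium-binding protein, fell by 1.96 (log2), from 27.9, 22.8 and 16.9 to 6.03, 5.14 and 5.66 RPKM.

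Increases are given in order of size under the same limits. Aspn, an extracellular proteoglycan, had an RNA level of 6.93, 8.77 and 6.2 RPKM with shRNA2 and 0.823, 0.972 and 1.99 RPKM with scramble, a difference of 2.52 ± 0.28 (log2, SE). In the Gfp lysates it was 2.07 and 6.31 RPKM, and the second of these exceeded 1 shRNA2 lysate. The alarmin cytokine gene Il33 measured 3.00, 3.84 and 2.94 RPKM against 0.433, 0.681 and 1.40 RPKM, but 3.90 and 5.61 RPKM in the Gfp lysates. Galnt15, an enzyme of mucin-type glycosylation, rose by 1.85 (log2) from 0.511, 0.568 and 0.647 to 1.49, 2.76 and 3.02 RPKM, and the Gfp lysates held 0.765 and 0.548 RPKM. With the Gfp lysates added to the control, Il33 RNA lost its call (limma adjusted p = 0.461).

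Olfm1, encoding a secreted olfactomedin, measured 6.30, 6.66 and 6.05 RPKM with shRNA2, 1.78, 1.54 and 2.63 RPKM with scramble, and 3.55 and 4.03 RPKM with Gfp. Capn6, a calpain relative, measured 12.6, 13.2 and 11.1 RPKM against 3.11, 3.71 and 4.96 RPKM, and 13.7 and 15.1 RPKM in the Gfp lysates, which lay above each shRNA2 lysate. With the Gfp lysates in the control its RNA call was lost (limma adjusted p = 0.344). In footprints Bmf, a pro-apoptotic BCL2-family gene, rose by 1.82, with 4.92, 6.07 and 4.97 RPKM against 1.40, 1.59 and 1.32 RPKM. Its Gfp lysates stood at 4.21 and 3.32 RPKM, below each shRNA2 lysate.

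The counts depended on the control line. With both Gfp lysates added to the scramble control, there were 474 RNA calls instead of 1737 and 774 footprint calls instead of 2587. Without shRNA2 replicate 2 or 3 or scramble replicate 2 the RNA count was 542, 523 and 836, and without shRNA2 replicate 1 or 2 the footprint count was 1454 and 1043. In the lysates the comparison did not use, shRNA1 against Gfp, RNA was lower for 48.8% of the genes called lower other than Denr (40.4% of all genes were lower) and higher for 71.0% of those called higher (59.6% of all genes). For footprints these shares were 56.1% (all genes 48.3%) and 57.5% (all genes 51.7%).

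The called genes were counted in gene lists, to be read against all genes, of which 6.16% were called lower and 10.4% higher in RNA, and 11.7% lower and 12.9% higher in footprints. Leaving out 1 lysate lowered the count of some lists by over 1.5 times. The mevalonate and fatty acid pathway builds sterols and lipids. Of 27 measured members, 18 were called higher in RNA and 1 lower, with 20 higher and 2 lower in footprints. The median difference was 0.37 in RNA and 0.44 in footprints (log2), against 0.03 and 0.01 over all genes.

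**Figure D5:**
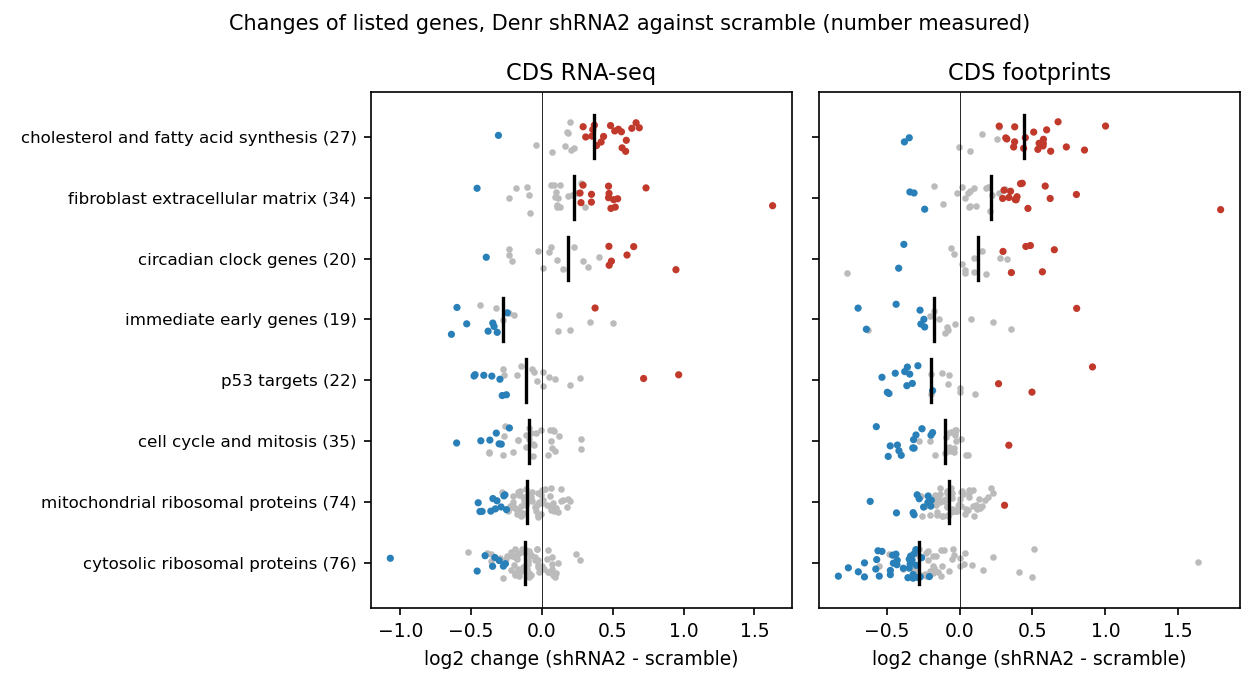
Log2 difference (shRNA2 minus scramble, x axis) of every measured member of 8 gene lists, for CDS RNA (left panel) and CDS footprints (right panel), red where called higher, blue where called lower, grey otherwise, with a bar at the list's median. Sterol and fatty acid synthesis has medians of 0.37 and 0.44, and cytosolic ribosomal proteins have -0.12 and -0.28.

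Among the sterol genes, Fdps, which makes farnesyl pyrophosphate, measured 178, 167 and 169 RPKM of RNA with shRNA2 and 101, 110 and 108 RPKM with scramble. Its rise was 0.69 in RNA and 0.86 in footprints. Insig1, the sterol-sensing anchor that holds SREBP in the endoplasmic reticulum, rose by 0.63 in RNA and by 1.00 in footprints, from 139, 152 and 149 to 256, 320 and 308 RPKM. Fdft1 (squalene synthase) rose by 0.67 and Lss (lanosterol synthase) by 0.60 in RNA. The Gfp lysates stood between for Fdps (155 and 138 RPKM of RNA), and with them in the control 7 members were called higher in RNA and 10 in footprints. Without shRNA2 replicate 2 the RNA count was 11.

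Extracellular matrix genes form the scaffold around fibroblasts. Of 34 measured, 14 were called higher and 1 lower in RNA, and 14 higher and 3 lower in footprints, with medians of 0.23 and 0.21 (log2). Eln, which encodes elastin, rose by 1.63 at low RNA levels (1.04, 0.982 and 1.40 against 0.223, 0.263 and 0.432 RPKM). Spp1 (osteopontin) measured 228, 235 and 223 RPKM against 130, 136 and 146 RPKM, Thbs2 (a thrombospondin) rose by 0.53 and Bgn (biglycan) by 0.52. For Spp1 the Gfp lysates held 209 and 227 RPKM, close to shRNA2. With Gfp in the control 2 members were called higher in RNA and 3 in footprints. Without shRNA2 replicate 2 the RNA count was 7, without shRNA2 replicate 3 it was 8 and without scramble replicate 2 it was 9.

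Cytosolic ribosomal proteins build both ribosomal subunits. Of 76 measured genes, 8 were called lower in RNA and 33 in footprints, none was called higher in either, and the medians were -0.12 and -0.28 (log2), with the difference between RNA and footprints not tested over the list. Many have processed pseudogenes that can take or lend reads, so single members are uncertain. With Gfp in the control 0 members were called in RNA and 1 in footprints, and without shRNA2 replicate 1, replicate 2 or scramble replicate 2 the footprint count was 14, 11 and 22. The lowest RNA count was 1, without shRNA2 replicate 3. No member had a called TE, and the median TE difference was -0.13.

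Immediate early genes are the first transcripts induced by growth factors. Of 19 measured, 8 were called lower and 1 higher in RNA, and 7 lower and 1 higher in footprints. Myc measured 24.9, 34.7 and 31 RPKM with shRNA2 and 45.5, 50.7 and 40.6 RPKM with scramble, a fall of 0.60 (log2). Maff fell by 0.64, Fosl1 by 0.53 and Ier3 by 0.38. With Gfp in the control, 1 was called lower in RNA and 5 in footprints, and the lowest counts were 4 in RNA without shRNA2 or scramble replicate 2 and 3 in footprints without scramble replicate 2. Cell cycle genes had 7 of 35 called lower and none higher in RNA, and 13 lower and 1 higher in footprints. Cdc6, which loads the replicative helicase, fell by 0.60 and Rrm2, a ribonucleotide reductase subunit, by 0.43 in RNA. Without shRNA2 replicate 2 the counts lower were 1 in RNA and 6 in footprints, and with Gfp in the control they were 2 and 4.

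Targets of the tumour suppressor p53 were called lower more often than higher. Of 22 measured, 7 were called lower and 2 higher in RNA, and 11 lower and 3 higher in footprints. The counts higher were near the 10.4% and 12.9% of all genes. Ccng1 and Ckap2 fell by 0.47 and 0.48. Gadd45a, a growth arrest gene, rose by 0.97, with 49.3, 45.6 and 58.9 RPKM against 26.9, 27.5 and 24 RPKM, and Ccng2 rose by 0.72. The Gfp lysates had 38.3 and 40.8 RPKM of Gadd45a RNA. Without shRNA2 replicate 3 the RNA count lower was 2, and with Gfp in the control it was 2, beside 8 in footprints. The lowest footprint count was 6, without shRNA2 replicate 2.

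Genes under the control of ATF4 moved in both directions, with 5 called lower and 4 higher of 24 in RNA, and 8 lower and 3 higher in footprints. The count higher in footprints was near the 12.9% of all genes. Trib3, a pseudokinase, rose by 0.64, Ddit4, an inhibitor of mTORC1, by 0.54 and Nupr1, a stress-induced chromatin protein, by 0.54, while the amino acid enzyme Cth fell by 0.57 (log2 RNA). With Gfp in the control the RNA counts were 2 lower and 1 higher, and without shRNA2 replicate 3 they were 1 and 3. In footprints the lowest counts were 2 and 2, without shRNA2 replicate 2. Among 40 initiation factors and their regulators, 4 were called lower and 3 higher in RNA, and 12 lower and 2 higher in footprints. The RNA counts lay near the 6.16% and 10.4% of all genes. Eif2b1, a subunit of the eIF2 exchange factor, fell by 0.34 and the helicase gene Eif4a2 by 0.29 in RNA. Without shRNA2 replicate 2 the RNA counts were 0 and 0, with 4 lower in footprints. Of the 9 reinitiation and recycling factors, 3 were called lower in RNA: Denr, Abce1, the ATPase that splits terminated ribosomes (-0.34), and Gspt1, the release factor eRF3 (-0.21). With Gfp in the control Denr alone was called.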

How the data were processed

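Footprints and RNA were sequenced from the same lysates, and the 12 libraries of the shRNA2 and scramble lysates entered the comparison. The RPKM values were deposited by the authors, per gene for the 5′ UTR and CDS: reads were trimmed with cutadapt, aligned in sequence to ribosomal RNA, transfer RNA and transcripts with Bowtie2 and to the GRCm38 genome with TopHat2 2.0.11, and expressed isoforms came from Cufflinks 2.2.1. The authors counted footprints at the putative A-site and RNA reads at their 5′ end, scaled RNA and footprint libraries separately by the upper quartile in edgeR, and removed lowly read and mitochondrial genes. A change common to most genes is therefore removed by the scaling.

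From these values, log2(RPKM + 0.1) was fitted per gene in limma 3.58.1 (R 4.3.3) with a trended prior, over the 6 lysates, without covariates. RNA, CDS footprints, TE (the difference of both per lysate) and the 5′ UTR to CDS ratio were each adjusted over all genes tested, with calls at 0.1. The ratio needed at least 20 5′ UTR reads in 9 of the 11 footprint libraries. The test was run on simulated data before use. Whole reads were recovered from 231352 of 231352 CDS values (tolerance 0.0001), which gave the depths. Exact permutation tests compared lysate medians. An AUG uORF was an upstream AUG with an in-frame stop, of at least 9 nt, and TE or relative 5′ UTR translation was not used to choose transcripts. Symbols came from GENCODE vM21. Python 3.11.15, pandas 2.3.3 and numpy 2.4.6 were used.

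Named genes were, per measure, the 6 that fell most and the 6 that rose most among called genes whose groups did not overlap and whose mean RNA reached 1 RPKM, the remaining called TE genes, Denr, Mcts1, Eif2d, genes the study names, and up to 4 called members per list. The members and lists were chosen with earlier results of these data known. Footprint deviations from the group means correlated weakly between equally numbered lysates (r of 0.15, 0.12 and 0.28 across genes). Those of RNA (0.22, -0.002 and -0.08) and TE (0.09, 0.05 and -0.06) did not in every number. The labels do not say that equal numbers form pairs. The alternatives were other pseudocounts, an RPKM filter, centring, no trend, other sets of lysates, a replicate block and each lysate left out. A limma-voom test on the recovered reads and the list counts per alternative were added after seeing the data.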

Additional observations from a re-analysis of the deposited data

How the results depend on the processing

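Counts of called genes moved more with the lysates used than with the scale. RNA calls (1737) were 1024 with all 11 lysates in the fit and 474 with scramble and Gfp as the control, and with 1 lysate left out they ran from 523 to 2245. Footprint calls (2587) were 774 with scramble and Gfp as the control and ran from 1043 to 2581 with 1 lysate left out. TE calls (19) were 7 with a pseudocount of 0.01, 41 with a pseudocount of 1, 43 with scramble and Gfp as the control, 48 with an interaction term over the 12 libraries, 46 with voom on the recovered reads, and 0 to 11 with 1 lysate left out. For TE, the interaction and voom fits held no term for the lysate. Footprint and RNA libraries of a lysate thus entered these fits as separate samples. The 1 call for relative 5′ UTR translation became 4 with a pseudocount of 1, 6 without the trend, 21 with all 11 lysates, 9 with scramble and Gfp as the control, 0 with a 5′ UTR filter of 1 RPKM and 0 to 12 with 1 lysate left out. The causes were not tested. The RNA-seq 5′ UTR to CDS ratio gave 0 calls in each alternative. The lysate medians of relative 5′ UTR translation, of TE by uORF and of RNA by seed match kept their direction throughout.

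With the replicate block, TE calls were 0 and calls for relative 5′ UTR translation 224, while footprint calls were 3510 and RNA calls 1531. Deviations of CDS footprints correlated weakly between equal numbers, which the labels do not give as pairs. The deviations of RNA and TE did not correlate in all 3 numbers, nor did those of the footprint 5′ UTR to CDS ratio (r of 0.20, -0.0086 and 0.37). The block moved no other count of all genes by over 1.5 times.

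Of the values of single named genes under these alternatives, 1712 kept their direction and their side of the threshold, 382 lost the call, 12 gained it and 11 turned sign. The latter were all of genes not called. Map2k6 footprints were -0.099 with scramble and Gfp as the control and -0.066 to 0.098 with 1 lysate left out. Tmem60 TE was 0.0053 with centred libraries and -0.13 to 0.082 with 1 lysate left out. Atf4 TE ran from -0.21 to 0.062 and Dsel TE from -0.24 to 0.019 with 1 lysate left out. With 8514080 to 20109700 reads per RNA library and 3 lysates per group, the smallest TE difference among the called genes was 0.58. This value follows from the calls themselves and is not a measured limit of detection. Size alone did not set the calls, since Vegfd and Etaa1, each at -0.66, were not called.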

Other observations

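Circadian clock genes, which cycle in fibroblasts after a serum change, are counted here beside all genes, of which 6.16% were called lower and 10.4% higher in RNA, and 11.7% lower and 12.9% higher in footprints. Of 20 measured, 6 were called higher and 1 lower in RNA, and 6 higher and 2 lower in footprints (limma adjusted p at 0.1). Bhlhe40, a transcriptional repressor of the clock, rose by 0.65 and Rora, an orphan nuclear receptor, by 0.60 (log2 RNA). Hlf, a PAR-domain transcription factor, and Ciart, a clock repressor, rose by 0.95 and 0.49 in RNA, with footprint values of -0.77 and -0.06 that did not pass. Hlf lay under the filter of a mean RNA of 1 RPKM. Its RNA call was lost in 5 of 14 other settings, and that of Ciart in 3 of 15. With the Gfp lysates in the control the RNA counts were 1 higher and 1 lower, without shRNA2 replicate 3 they were 2 and 0, and without shRNA2 replicate 2 the footprint counts were 1 and 0. The counts lower in RNA and in footprints were near those of all genes. Contractile and SRF-controlled genes had 4 lower and 2 higher of 20 in RNA and 7 lower and 2 higher in footprints. The YAP and SRF target genes Ankrd1 and Ccn1 fell by 0.72 and 0.69, and Actg2, a smooth muscle actin, rose by 0.77. In RNA the counts were 1 lower and 1 higher without shRNA2 replicate 3 or scramble replicate 2, and 2 and 1 with Gfp in the control. In footprints 1 was called lower without shRNA2 replicate 3, without scramble replicate 2 or without the trend, and 3 with Gfp in the control.

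Mitochondrial ribosomal proteins had 11 of 74 members called lower in RNA and none higher, and 11 lower and 1 higher in footprints, at medians of -0.10 and -0.07 (log2), of which the footprint count lower was near the 11.7% of all genes. Mrpl49 fell by 0.44 and Mrpl33 by 0.42 in RNA. Without shRNA2 replicate 2 or replicate 3 the RNA count was 1 in each case, and with Gfp in the control it was 3. Without replicate 2 of either group 4 were called lower in footprints. Stress genes with regulatory uORFs and the eIF2 kinases had 4 of 14 called higher and 0 lower in RNA, with 2 higher and 2 lower in footprints, the latter near the shares of all genes. The RNA count was 2 without shRNA2 replicate 2 or with Gfp in the control. Ddit3 (CHOP) rose by 0.44 in RNA, with a footprint value of 0.08. The unfolded protein response had 2 of 22 called higher and 0 lower in RNA, both small (Xbp1 by 0.27 and Derl1 by 0.27), a count near the share of all genes, which was 0 without shRNA2 replicate 2, shRNA2 replicate 3 or scramble replicate 2 and with Gfp in the control. Interferon-stimulated genes had 2 of 16 called higher and 0 lower, led by Xaf1 (0.68), also near the share of all genes, with 1 left in each fit without an shRNA2 lysate or without scramble replicate 2. Nonsense-mediated decay factors had 1 of 17 called higher in RNA (Smg5, 0.24) and 0 without any 1 of the shRNA2 lysates or scramble replicate 2. The anaphase-promoting complex had 2 of 16 called higher in RNA and 1 lower, near the shares of all genes, and 0 in both without shRNA2 replicate 2, shRNA2 replicate 3 or scramble replicate 2.

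The lowered chemokine genes are neighbours. On chr5:90759360-91402994 (GRCm38), a span of 643.634 kb chosen after the values were seen, 6 genes were measured. In the order of the chromosome the RNA differences (log2) were -1.68 for Cxcl5, -1.43 for Ppbp, -2.01 for Cxcl1, -0.26 for Mthfd2l, a folate enzyme (limma adjusted p = 0.119), -1.03 for the growth factor gene Ereg and -0.60 for the related Btc. Ereg RNA was 34, 29.8 and 29.7 RPKM with shRNA2 and 65.4, 62.1 and 63.4 RPKM with scramble, and the Gfp lysates held 34 and 40.1 RPKM, close to shRNA2.

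The messages that could pair with the hairpin were looked up as well. A match to bases 2 to 8 of the guide (TGCGGAT in the message) occurred in the 3′ UTR of 123 of 10307 genes (1.19%). Their RNA was called lower in 6 genes (4.88%, against 6.21% of genes without a match) and higher in 16 (13% against 10.3%). The difference between the medians of these sets was 0.02 (log2; exact permutation p over lysates = 0.2, two-sided), with genes holding a match slightly higher.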
